A study of Mus musculus with 40 samples.

Results

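The 39 genes described here encode ion channel subunits that are best known from neurons, namely 11 pore subunits and 5 auxiliary subunits of voltage-gated potassium channels, 5 inwardly rectifying potassium channels, 4 leak or ion-activated potassium channels, 5 sodium channel subunits, 4 pore and 4 auxiliary subunits of voltage-gated calcium channels, and 1 cyclic nucleotide-gated pacemaker channel. They were given as a list of gene symbols with no threshold on a measured value, although the list was drawn up with earlier results of these data in view, and each of the 39 had a probe set naming that gene alone, among 18193 genes measured in all. Every member was tested, with no filter on low signal.

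Voltage-gated sodium channels carry the rising phase of the action potential, voltage-gated potassium channels end it and set how often a neuron can fire, and voltage-gated calcium channels open to release transmitter or to shape dendritic responses. Inward rectifiers and leak channels hold the resting potential. A few of the potassium channels on the list are not restricted to neurons: Kcnj10, Kcnj16 and Kcnk2 are also known from astrocytes and other glia. The question put to the data was how the RNA of these genes in p53-driven mouse gliomas, and in cells grown from them, compares with that in normal cortex.

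The samples were 5 normal dorsal cortices, 11 p53null gliomas (genotype hGFAP-cre+;p53floxE2-10/floxE2-10), 11 p53R172H gliomas (hGFAP-cre+;p53LSLR172H/floxE2-10), 11 cell lines grown from end-stage p53R172H gliomas and 2 cell lines from early biopsies of the same genotype. Of the cortices, 3 came from hGFAP-cre+;p53floxE2-10/+ mice (arrays 30 to 32) and 2 from hGFAP-cre-;p53floxE5-6/floxE5-6 mice (arrays 33 and 34). In the hGFAP-cre mice a human GFAP promoter drives Cre, which acts in neural stem cells and so in most cortical neurons and glia descended from them, removes the exons named in a floxed p53 allele and switches on the missense allele p53LSLR172H. The study grew its lines in serum-free neural stem cell medium with bFGF and EGF, and no passage is given for the lines on the arrays. No age is given in the labels. The study paired every p53R172H tumor with a line grown from it, but the labels do not say which line came from which tumor, so lines and tumors were compared as groups without pairing although they are not independent. Samples are named below by the array number in their labels.

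Each value is a deposited log2 signal, on which a difference of 1 is a doubling of signal, and the median of an array over all probe sets was between 5.24 and 5.47. From here on, the array median means that over the 34945 probe sets with 1 gene symbol, which was higher. Signals of different probe sets have no common scale, so levels are compared between samples and not between genes. The groups were compared in 1 limma model, with p-values adjusted over all 18193 genes and a threshold of 0.05. That model used 1 spread for each gene, taken over all groups. Standard errors, intervals and p-values therefore also carry the spread of groups outside the comparison. The labels name no batch, and array numbers run in order of genotype, so array order and genotype cannot be told apart. The 22 measured neuron markers showed that 3 gliomas stood apart. Their median difference from the cortex mean was -0.66 in array 38, -0.70 in array 45 and 0.02 in array 58, against -6.72 to -2.46 in the other 19 gliomas and -0.17 to 0.09 in the cortices. Histology had shown normal tissue in a p53R172H tumor of the study before the arrays were run, and the labels do not say which array it was. The main counts are also given without arrays 38, 45 and 58.

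Proximal promoters are shown for Kcnj9 and Kcnd2, which were lower in gliomas and lines than in cortex, and for their relatives Kcnj10 and Kcnd3, which passed the test in neither. Differences between relatives were not tested. Kcnj9 and Kcnj10 encode inward rectifiers and are neighbors on mouse chromosome 1, transcribed away from each other, and Kcnd2 and Kcnd3 encode the A-type potassium channel subunits whose auxiliary proteins come from the Kcnip genes. Each sequence is the 250 bases before the annotated start, on the sense strand, from RefSeq on build GRCm38.p6. Capitals mark 1 of 3 common promoter elements on either strand, namely the GC box, searched as the letters GGGCGG, the CCAAT box, searched under the letters of its name, and the TATA box, which was searched for with the letters TATAAA. The Kcnj9 promoter (chr1:172329323-172329572, minus strand) held 1 CCAAT box and 1 TATA box. The Kcnj10 promoter (chr1:172340960-172341209, plus strand) held 2 GC boxes and 2 CCAAT boxes, the Kcnd2 promoter (chr6:21215096-21215345, plus strand) held 1 GC box, and no match was found in the Kcnd3 promoter (chr3:105451640-105451889, plus strand).
Kcnj9: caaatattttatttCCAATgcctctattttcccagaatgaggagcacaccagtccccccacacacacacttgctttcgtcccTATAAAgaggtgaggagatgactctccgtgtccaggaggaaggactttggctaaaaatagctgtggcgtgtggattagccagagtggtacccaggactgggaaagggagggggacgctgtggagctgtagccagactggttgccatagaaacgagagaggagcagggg
Kcnj10: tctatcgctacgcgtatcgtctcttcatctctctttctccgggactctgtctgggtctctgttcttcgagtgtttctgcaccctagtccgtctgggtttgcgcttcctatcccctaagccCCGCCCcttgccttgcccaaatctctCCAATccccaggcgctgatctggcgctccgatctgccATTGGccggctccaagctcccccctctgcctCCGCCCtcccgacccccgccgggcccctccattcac
Kcnd2: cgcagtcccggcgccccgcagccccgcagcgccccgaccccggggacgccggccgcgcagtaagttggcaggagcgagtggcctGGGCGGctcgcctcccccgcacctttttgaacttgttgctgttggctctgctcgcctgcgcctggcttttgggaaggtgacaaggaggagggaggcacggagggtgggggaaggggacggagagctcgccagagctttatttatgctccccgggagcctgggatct
Kcnd3: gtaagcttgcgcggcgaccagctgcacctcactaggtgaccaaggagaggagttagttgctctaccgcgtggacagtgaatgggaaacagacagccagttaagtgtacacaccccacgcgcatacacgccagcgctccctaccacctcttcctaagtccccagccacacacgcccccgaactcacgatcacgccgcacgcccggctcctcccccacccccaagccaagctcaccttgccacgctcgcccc

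The table held 54 such promoters for 33 of the 39 genes. A GC box lay in 37.04% of them against 32.7% of all 32851 promoters, a CCAAT box in 35.2% against 33.8%, and a TATA box in 5.56% against 12.4%. The cyclic AMP response element TGACGTCA was found in 0 of the 54 and in 1.55% of all promoters. Both strands were searched for each motif, and none of these motifs contains another. G and C made up 52% of the Kcnj9, 62% of the Kcnj10, 68.8% of the Kcnd2 and 62.8% of the Kcnd3 sequence, with a median of 52.4% over all promoters.

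In the 22 gliomas, 34 of the 39 channel genes were lower than in cortex and 0 were higher (limma, adjusted p under 0.05). Over all genes, 24.7% were lower and 22.6% higher in this comparison. The median difference of the channel genes was -2.91, against -0.03 over all genes. The largest falls were those of Kcnc2, Kcnip4, Scn2b, Kcnab1, Scn2a and Scn1a, and the 5 genes that did not pass were Kcnd3, Kcnip3, Kcnj10, Kcnj16 and Kcnk2. In 13 of the 39, all 22 gliomas lay below all 5 cortices, which held for 3.59% of all genes. Without the gliomas of arrays 38, 45 and 58, 36 of the 39 were lower and 0 higher, with a median of -3.24, and Kcnd3 and Kcnj16 joined those that passed. The share of all genes was not counted without these gliomas, so the higher count may not be particular to the channels. In bulk tissue, fewer cells of a type and less RNA per cell cannot be told apart.

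In the 11 end-stage lines, 35 of the 39 were lower than in cortex and 0 were higher, with a median of -3.60 against 0.02 over all genes. Over all genes, 24.3% were lower and 25.5% higher. In 34 of the 39, all 11 lines lay below all 5 cortices, as they did for 15.2% of all genes. The lines and the gliomas were measured against the same cortices. The mean signal of 25 of the 39 genes in the lines was below the mean array median, and so were 14 in the gliomas and 1, Kcnh7, in cortex. At such levels low and absent RNA can look alike, and differences given for such genes may be lower bounds.

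**Figure D1:**
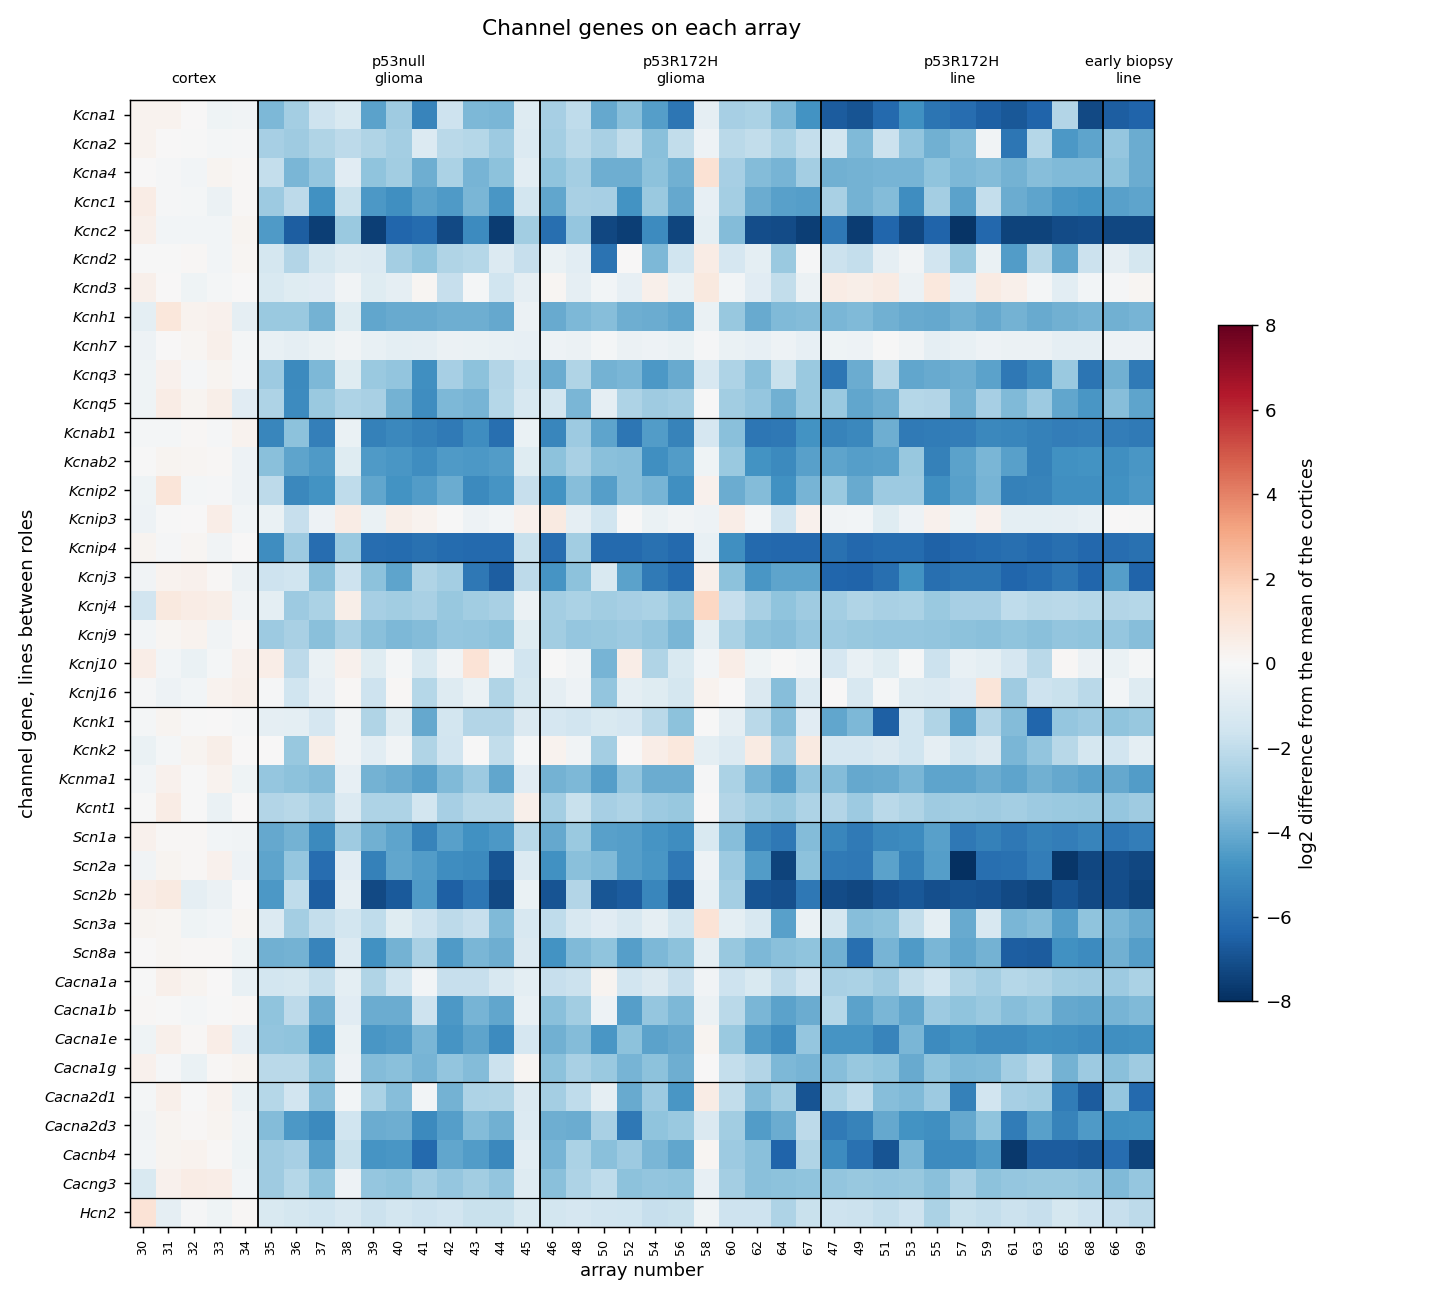
Log2 difference of each of the 39 channel genes (rows, grouped by role) from the mean of the 5 cortices on each of the 40 arrays (columns, grouped by sample type). Blue is lower and red is higher. Most rows were blue in gliomas and bluer in lines, while Kcnd3, Kcnh7, Kcnip3, Kcnj10, Kcnj16 and, in gliomas, Kcnk2 stayed pale, and the gliomas of arrays 38, 45 and 58 were paler than the other gliomas.

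The pore subunits of voltage-gated potassium channels were lower in gliomas for 10 of 11 genes (median -2.83) and in lines also for 10 of 11 (median -3.60). Kcnc2, which encodes a fast channel of rapidly firing interneurons, had log2 signals of 11.02, 10.40, 10.36, 10.41 and 10.83 in the cortices of arrays 30 to 34. In the gliomas its lowest, median and highest values were 3.03, 4.16 and 9.81, and in the lines 2.76, 3.43 and 4.90. Every glioma and every line lay below every cortex, and the highest glioma was that of array 58. The difference from cortex was -5.75 in gliomas (standard error 0.77, 53.9-fold, limma adjusted p = 2.11e-07) and -6.97 in lines (standard error 0.84, adjusted p = 1.67e-08). Its relative Kcnc1 fell by 3.51 in gliomas and by 3.76 in lines.

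Kcna1, the gene of a low-threshold potassium channel of axons, differed between gliomas and lines as well as between both and cortex. Its cortex signals were 11.72, 11.70, 11.47, 11.12 and 11.16. Glioma signals ran from 5.65 through a median of 8.32 to 10.71, and those of the lines from 4.22 through 5.04 to 9.10. The early biopsy lines were at 4.83 and 5.02. No glioma or line reached the cortices, and 10 of the 11 lines were at or below 6.60, with the line of array 65 alone at 9.10. The difference from cortex was -3.10 in gliomas (standard error 0.62, adjusted p = 8.38e-05) and -5.98 in lines (standard error 0.67, adjusted p = 4.85e-09), and lines were lower than p53R172H gliomas by -2.65 (standard error 0.53, adjusted p = 0.000586).

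The other members of the Kcna family fell in both comparisons. Kcna2, which pairs with Kcna1 in axonal channels, changed by -2.20 in gliomas and -3.12 in lines, and the line of array 59 had a Kcna2 signal of 10.12, just under the lowest cortex at 10.26. Kcna4, a fast-inactivating channel gene, changed by -2.83 and -3.60. The genes of the M-current, a slow potassium current that limits repetitive firing, were lower in both: Kcnq3 changed by -3.08 in gliomas and -4.37 in lines, and Kcnq5 by -2.81 and -3.39. Kcnh1, a member of the ether-a-go-go family, changed by -3.32 and -3.86. Kcnh7 was below the array median already in cortex, at 4.51 ± 0.32 (SD, n = 5), and its small differences of -0.52 and -0.47, which passed the test, were measured at such dim signals.

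Kcnd2 passed as lower in gliomas and in lines, and Kcnd3 in neither. Kcnd2 had cortex signals of 11.03, 11.003, 11.11, 10.82 and 11.22. Its glioma signals ran from 5.10 through a median of 9.65 to 11.62, and its line signals from 6.56 through 9.29 to 10.77. The gliomas overlapped the cortices and the lines did not, with the lowest glioma signals in arrays 50 (5.10), 54 (7.42) and 41 (7.79). The difference was -1.72 in gliomas (standard error 0.64, adjusted p = 0.0259) and -2.02 in lines (standard error 0.70, adjusted p = 0.0152). The glioma call was lost with the 3 Cre-positive cortices alone, at a difference of -1.73 (adjusted p = 0.0988), and without the cortex of array 32 or 34 (0.052 and 0.0557). The line call was lost with the Cre-positive cortices alone, at a difference of -2.03 (adjusted p = 0.0588).

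Kcnd3 had cortex signals of 10.73, 10.37, 10.01, 10.18 and 10.37, glioma signals of 8.36, 9.65 and 11.12 (lowest, median and highest) and line signals of 9.51, 10.77 and 11.14. All 3 groups overlapped. The difference was -0.61 in gliomas (95% interval -1.20 to -0.02, adjusted p = 0.084) and 0.12 in lines (-0.52 to 0.77, adjusted p = 0.784), and neither passed. In gliomas Kcnd3 passed as lower with cyclic loess normalization, with array weights and without arrays 38, 45 and 58 (adjusted p from 0.00276 to 0.0382). A dimmer Kcnd3 probe set went the other way, from 4.71 ± 0.08 (SD, n = 5) in cortex to 5.74 ± 1.01 (SD, n = 22) in the gliomas, and 6.16 ± 0.80 (SD, n = 11) in lines, and in a fit of all probe sets added after seeing the data it was higher in both (adjusted p = 0.0451 and 0.00906).

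**Figure D2:**
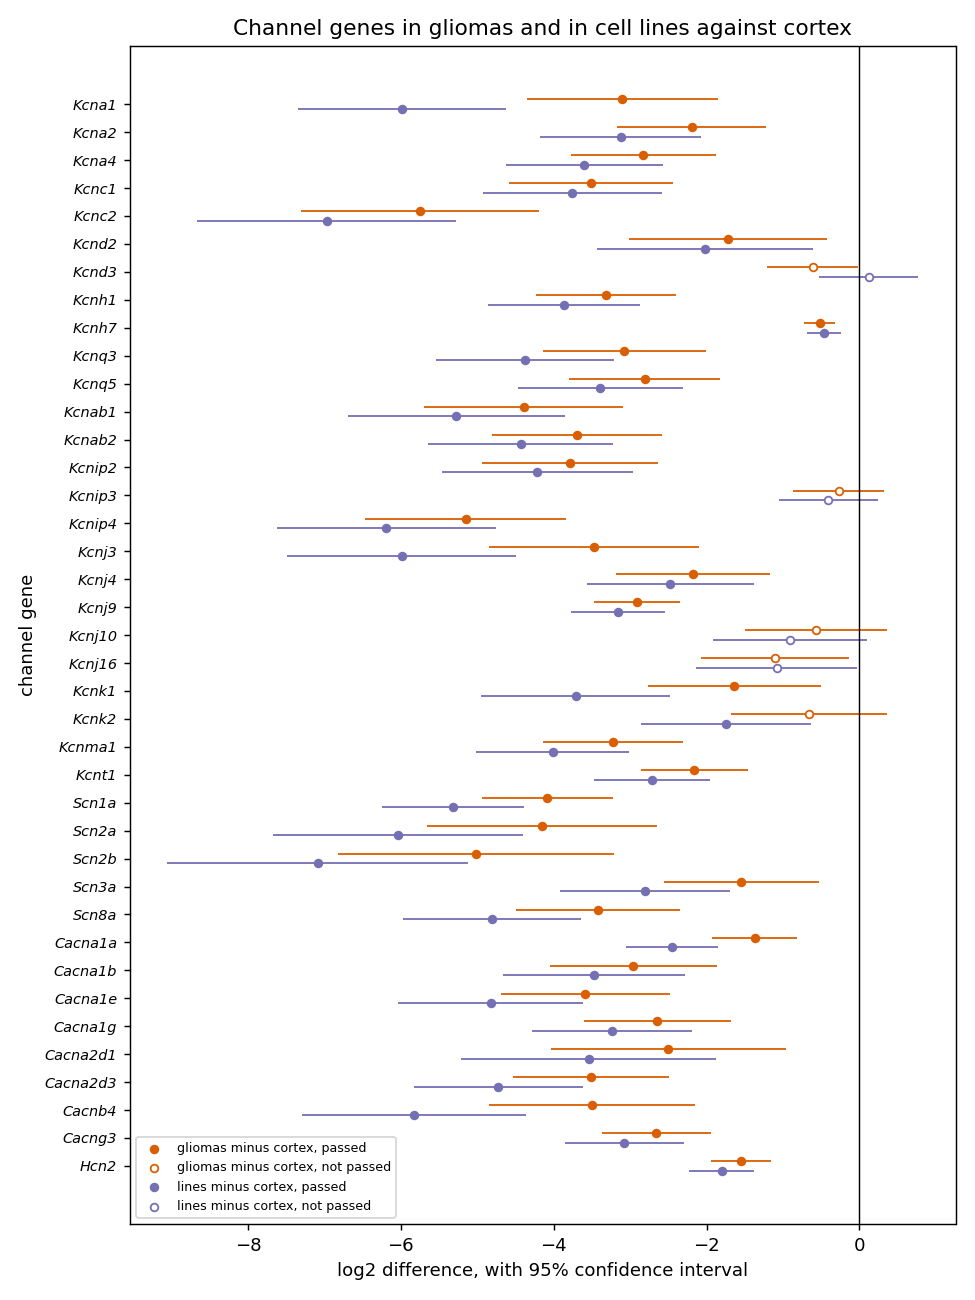
Log2 difference from cortex of each channel gene in the 22 gliomas (orange) and the 11 end-stage lines (purple), with 95% confidence intervals from limma; filled points passed at an adjusted p under 0.05 and open points did not. All filled points lie to the left of 0, and Kcnd3, Kcnip3, Kcnj10 and Kcnj16 are open in both comparisons.

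Of the 5 auxiliary subunits of voltage-gated potassium channels, 4 were lower in gliomas (median -3.79) and the same number in lines (median -4.43). Kcnip4, the gene of a calcium-binding partner of A-type channels, had cortex signals of 9.46, 9.15, 9.40, 8.996 and 9.31. The gliomas ran from 3.001 through a median of 3.14 to 8.66, and the lines from 2.80 through 3.09 to 3.31. All gliomas and lines lay below all cortices. The difference was -5.15 in gliomas (standard error 0.65, adjusted p = 7.63e-08) and -6.19 in lines (standard error 0.71, adjusted p = 6.27e-09). The SD of Kcnip4 was 0.19 in cortex (n = 5), 1.73 in the gliomas (n = 22) and 0.14 in lines (n = 11). The standard error for lines rests on all groups, gliomas included. Both beta subunit genes, whose products attach to Kcna channels, were lower: Kcnab1 changed by -4.39 and -5.27, and Kcnab2 by -3.70 and -4.43. Kcnip2 changed by -3.79 and -4.21, or by -1.83 and -1.91 with the mean of all its probe sets.

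Kcnip3, a relative of Kcnip4 whose product is also known as a calcium-dependent transcriptional repressor, did not pass in either comparison. Its cortex signals were 8.17, 8.55, 8.58, 9.12 and 8.36. The gliomas had a lowest, median and highest value of 6.73, 8.28 and 9.30, and the lines of 7.59, 8.12 and 8.93, so all 3 groups overlapped. The difference was -0.27 in gliomas (95% interval -0.86 to 0.32, adjusted p = 0.472) and -0.41 in lines (-1.05 to 0.24, adjusted p = 0.306). The second probe set of the gene rose from 7.08 ± 0.60 (SD, n = 5) in cortex to 8.09 ± 0.77 (SD, n = 22) in the gliomas, and 8.76 ± 0.89 (SD, n = 11) in lines (adjusted p = 0.0275 and 0.000877 in the fit of all probe sets). The direction of Kcnip3 therefore depends on the probe set. Among the 105 probe sets of the 39 genes, this one and the dimmer one of Kcnd3 were the only ones that passed as higher in either comparison. Those that passed as lower were 79 in gliomas and 80 in lines. Of all 34945 probe sets in that fit, 8480 were lower and 7850 higher in gliomas, and 8044 lower and 9274 higher in lines.

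The inward rectifiers split into 3 genes that fell and 2 that did not pass. Kcnj3 and Kcnj9 encode subunits of the G protein-gated channel through which neurotransmitter receptors silence neurons. Kcnj9 had cortex signals of 7.67, 8.09, 8.19, 7.64 and 7.98. The gliomas ran from 4.24 through a median of 4.81 to 7.13, and the lines from 4.55 through 4.78 to 5.001. Every glioma and line lay below every cortex, and only the gliomas of arrays 45 (6.97) and 58 (7.13) were above 5.39. The difference was -2.91 in gliomas (standard error 0.28, 7.51-fold, adjusted p = 3.91e-10) and -3.16 in lines (standard error 0.30, adjusted p = 2.36e-10). Kcnj3 changed by -3.48 in gliomas and -5.99 in lines, and Kcnj4, a strong rectifier of forebrain neurons, by -2.17 and -2.47.

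Kcnj10, the neighbor of Kcnj9 and the main potassium-buffering rectifier of astrocytes, had cortex signals of 11.34, 10.54, 10.27, 10.63 and 11.12. Its glioma signals ran from 7.04 through a median of 10.51 to 11.86, and its line signals from 8.66 through 10.00 to 10.90. The early biopsy lines were at 10.22 and 10.60. The groups overlapped, and the lowest gliomas were those of arrays 50 (7.04), 54 (8.38) and 36 (8.68). The difference was -0.57 in gliomas (95% interval -1.49 to 0.36, adjusted p = 0.321) and -0.91 in lines (-1.91 to 0.10, adjusted p = 0.13). Under 3 alternatives the line difference passed, at an adjusted p of 0.0214 with only these groups in the model, 0.0311 with cyclic loess and 0.0199 with array weights.

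Kcnj16, whose product joins that of Kcnj10 in glial channels, showed similar values, with 7.87 ± 0.34 (SD, n = 5) in cortex, 6.77 ± 1.02 (SD, n = 22) in the gliomas, and 6.79 ± 1.08 (SD, n = 11) in lines. Its differences of -1.11 (adjusted p = 0.0542) and -1.08 (adjusted p = 0.0819) lay close to the threshold, and array weights brought both past it. The glioma difference of Kcnj16 also passed with cyclic loess (adjusted p = 0.0484) and with the filter on dim genes (0.0433). Without arrays 38, 45 and 58 it passed as well (0.0304). The line of array 59 had the highest Kcnj16 signal among the lines, 8.85, above all cortices (7.46 to 8.25). Of 12 astrocyte markers, 7 were lower and 0 higher in gliomas (median -1.34), and 8 were lower and 1 higher in lines (median -2.55). Their part in the Kcnj10 and Kcnj16 values was not tested.

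**Figure D3:**
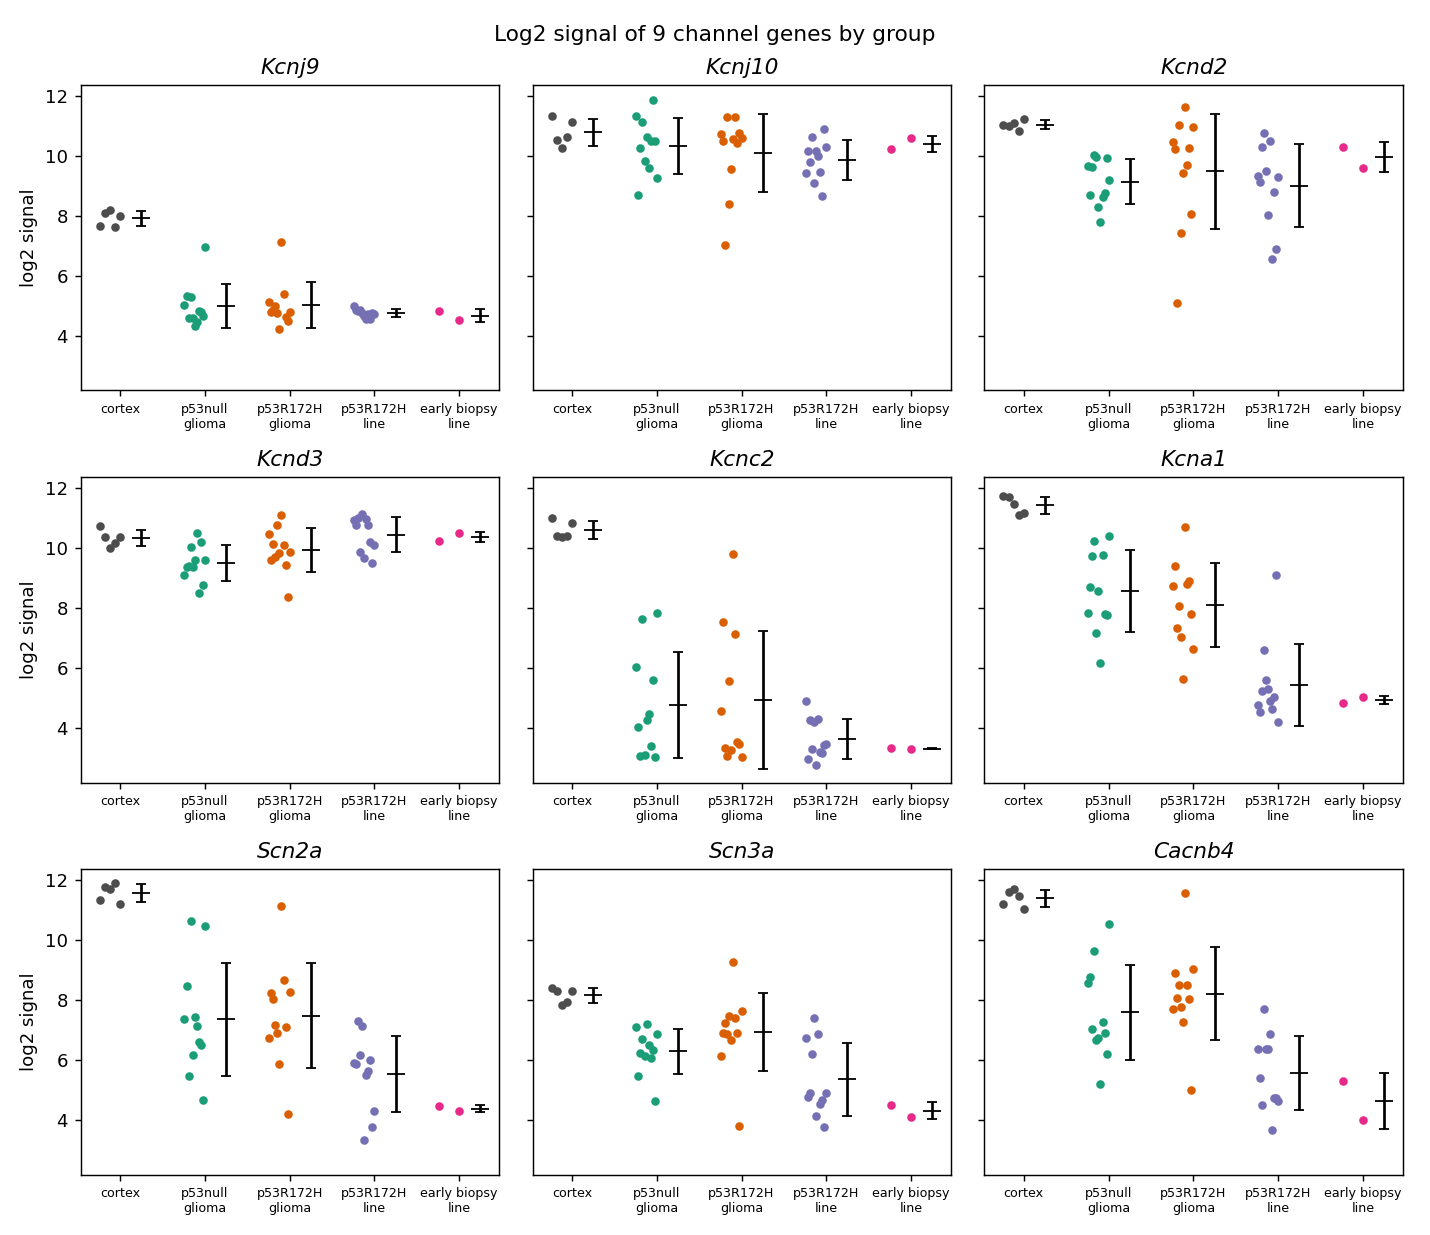
Log2 signal of 9 channel genes by sample type, 1 point an array, with the mean ± SD of each sample type drawn next to its points (n = 5 cortices, 11 p53null gliomas, 11 p53R172H gliomas, 11 lines and 2 early biopsy lines). Kcnj9 and Kcnc2 separated all gliomas and lines from cortex, whereas Kcnj10 and Kcnd3 overlapped in all groups, and 1 line stood out for Kcna1 at 9.10.

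Among leak and ion-activated potassium channels, 3 of 4 genes were lower in gliomas (median -1.90) and all 4 in lines (median -3.21). Kcnma1, the large-conductance channel opened by calcium and voltage, changed by -3.22 in gliomas and -4.01 in lines, and Kcnt1, a channel opened by sodium, by -2.16 and -2.72. Kcnk1, the gene of a weak leak channel, had cortex signals of 11.12, 11.53, 11.24, 11.34 and 11.23. The gliomas ran from 7.17 through a median of 9.95 to 11.27, and the lines from 4.75 through 7.79 to 9.70. The gliomas reached into the range of the cortices and the lines did not. Its difference from cortex was -1.64 in gliomas (adjusted p = 0.0153, and 0.072 with the Cre-positive cortices alone) and -3.71 in lines (adjusted p = 3.6e-06).

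Kcnk2, a leak channel opened by stretch and lipids, was at 8.93 ± 0.37 (SD, n = 5) in cortex, 8.27 ± 1.21 (SD, n = 22) in the gliomas, and 7.19 ± 0.89 (SD, n = 11) in lines. The glioma difference of -0.66 did not pass (95% interval -1.69 to 0.36, adjusted p = 0.293), and 4 gliomas, those of arrays 36 (5.91), 50 (6.19), 64 (6.36) and 41 (6.49), lay lowest. The line difference of -1.74 passed (adjusted p = 0.00792), but not with the Cre-positive cortices alone (0.0591). The gliomas of arrays 36, 41 and 50 also had the lowest scores of 10 measured oligodendrocyte progenitor markers, at -1.35, -0.08 and -2.77. The other gliomas were at 0.67 to 3.87, among them array 64 at 2.84 and array 54, low in Kcnj10 and Kcnd2, at 1.38. A score is the median difference from the cortex mean. Whether the low Kcnk2, Kcnj10 and Kcnd2 signals go with those markers was not tested. Without the gliomas of arrays 36, 41 and 50, 34 of the 39 channel genes were lower in gliomas than in cortex, with a median of -2.82. The share of all genes was not counted in that fit.

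All 5 sodium channel genes were lower in gliomas (median -4.08) and in lines (median -5.31). Scn2a, the pore subunit of excitatory neurons, had cortex signals of 11.33, 11.77, 11.70, 11.90 and 11.19. The gliomas ran from 4.20 through a median of 7.16 to 11.15, and the lines from 3.34 through 5.89 to 7.30. The early biopsy lines were at 4.48 and 4.30. All gliomas and lines lay below all cortices, although the glioma of array 58 at 11.15 was just under the lowest cortex, and arrays 38 and 45 followed at 10.65 and 10.47. The difference was -4.15 in gliomas (standard error 0.74, adjusted p = 1.8e-05) and -6.03 in lines (standard error 0.81, adjusted p = 1.1e-07).

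Scn1a, the main pore subunit of inhibitory interneurons, had cortex signals with a mean of 10.52 ± 0.25 (SD, n = 5), glioma signals of 6.44 ± 1.09 (SD, n = 22) and line signals of 5.21 ± 0.40 (SD, n = 11). All gliomas and lines lay below all cortices. The difference was -4.08 in gliomas (standard error 0.42, 16.9-fold, adjusted p = 1.56e-09) and -5.31 in lines (standard error 0.46, adjusted p = 2.3e-11). Scn8a, the pore subunit of the site where action potentials start, changed by -3.42 and -4.80.

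Scn2b, an auxiliary subunit that anchors the channel at the surface, had cortex signals of 11.25, 11.47, 9.99, 10.24 and 10.74. Signals in gliomas ran from 3.55 through a median of 4.57 to 10.21, and the lines stayed between 3.32 and 3.93 with a median of 3.69. The gliomas of arrays 45 (10.21), 58 (10.14) and 38 (9.9947, against a lowest cortex of 9.994) reached the cortices, and no line did. The difference was -5.01 in gliomas (standard error 0.89, adjusted p = 1.72e-05) and -7.09 in lines (standard error 0.97, 136-fold, adjusted p = 1.68e-07). With the mean of all its probe sets these were -2.77 and -3.68. Scn3a, the pore subunit that is prominent in embryonic brain, moved least of the sodium channel genes in gliomas, by -1.54 (standard error 0.50, adjusted p = 0.0108, and 0.0538 with the Cre-positive cortices alone), and by -2.80 in lines (adjusted p = 4.81e-05).

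All 4 pore subunits of calcium channels were lower in gliomas (median -2.80) and in lines (median -3.35). Cacna1e, the gene of the R-type channel, changed by -3.59 and -4.83, and Cacna1b, of the N-type channel of nerve terminals, by -2.96 and -3.47. Cacna1g, the gene of a low-threshold T-type channel, changed by -2.65 and -3.24. Cacna1a, of the P/Q-type channel that triggers transmitter release, changed by -1.37 in gliomas (standard error 0.27, adjusted p = 8.78e-05) and by -2.45 in lines. With the mean of all probe sets the values of Cacna1a were -0.39 and -0.83, both past the threshold. The glioma of array 50 had the highest signals of all gliomas for Cacna1a (7.79) and Cacna1b (9.14).

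All 4 auxiliary subunits of calcium channels were lower too (median -3.08 in gliomas and -4.13 in lines). Cacnb4, a cytoplasmic subunit that carries pore subunits to the membrane, had cortex signals of 11.20, 11.62, 11.70, 11.49 and 11.04. The gliomas ran from 4.99 through a median of 7.92 to 11.58, and the lines from 3.68 through 5.41 to 7.72. The glioma of array 58 lay among the cortices, and no other glioma or line did. The difference was -3.50 in gliomas (standard error 0.66, adjusted p = 4.31e-05) and -5.82 in lines (standard error 0.72, adjusted p = 2.96e-08). Among the alpha2delta subunits, which set how many channels reach the surface, Cacna2d3 changed by -3.51 and -4.72 and Cacna2d1 by -2.50 (adjusted p = 0.00635) and -3.54. Among p53R172H gliomas Cacna2d1 ran from 3.69 in array 67 to 11.18 in array 58. Cacng3, a family member known as an auxiliary subunit of AMPA-type glutamate receptors, changed by -2.66 and -3.08.

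Hcn2, a pacemaker channel opened by hyperpolarization and cyclic AMP, had cortex signals of 8.41, 6.66, 7.24, 7.002 and 7.43. It was at 5.80 ± 0.38 (SD, n = 22) in the gliomas, and 5.55 ± 0.28 (SD, n = 11) in lines, close to the array medians. The difference was -1.55 in gliomas (standard error 0.19, adjusted p = 6.79e-08) and -1.80 in lines (standard error 0.21, adjusted p = 1.07e-08).

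The gliomas with the highest channel signals were those with the highest neuron markers. The score of an array, the median difference of the 39 genes from the cortex mean, was -0.94 in array 38, -1.07 in array 45 and -0.34 in array 58, and between -3.69 and -2.53 in the other 19 gliomas. The lines lay between -4.19 and -3.14, the early biopsy lines at -3.64 and -4.05, and the cortices between -0.10 and 0.19. The glioma of array 58 had the highest signal of all gliomas in 26 of the 39 genes, and 13 of its 39 signals were above the cortex mean, against 0 to 4 in the other gliomas.

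The neuron marker scores were between -6.72 and 0.02 in gliomas, between -7.06 and -5.02 in lines and at -6.76 and -6.53 in the early biopsy lines. All 22 markers were lower than in cortex both in gliomas (median -4.24) and in lines (median -6.12). Among them Snap25, a synaptic protein gene, was at 13.44 ± 0.09 (SD, n = 5) in cortex, 9.40 ± 2.36 (SD, n = 22) in the gliomas, and 5.67 ± 1.60 (SD, n = 11) in lines. Array signals have no true 0, and in the lines Slc17a7, the glutamate transporter of excitatory neurons, was at 4.10 ± 0.27 (SD, n = 11), below the array median. Of the genes for the GABA-making enzymes of inhibitory neurons, Gad2 was at 3.56 ± 0.28 (SD, n = 11), also below it, and Gad1 at 8.79 ± 0.90 (SD, n = 11), above it. How much of the lower channel signals goes with fewer neurons in the tissue was not tested.

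**Figure D4:**
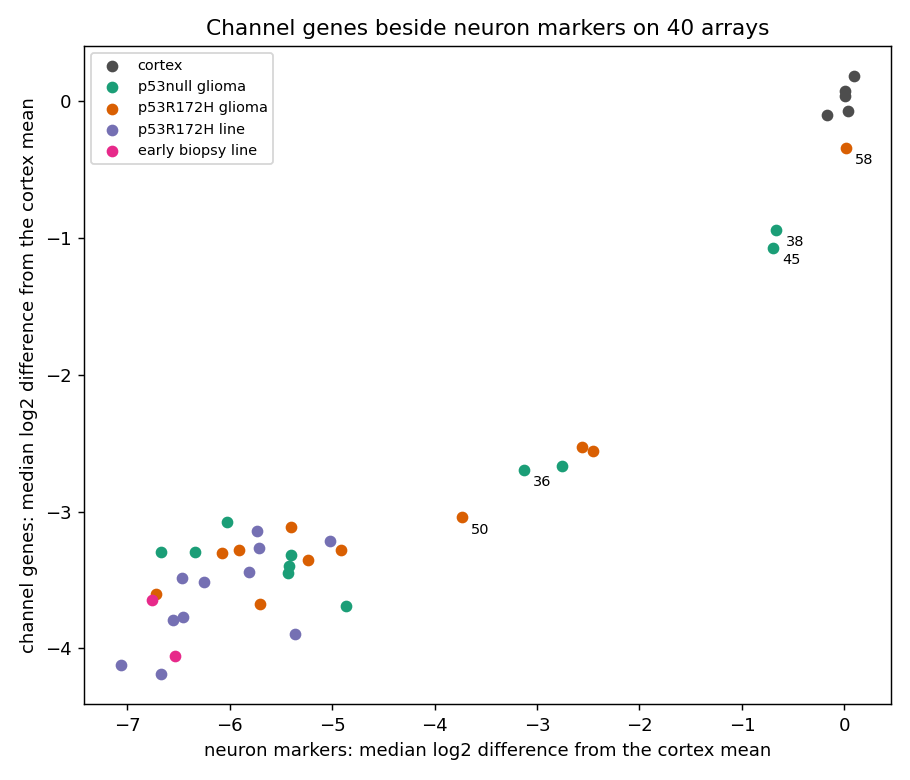
Score of the 39 channel genes (y axis) against the score of 22 neuron markers (x axis) on each of the 40 arrays, both as the median log2 difference from the cortex mean; colors give the groups and the numbers name arrays discussed in the text. On the y axis the gliomas of arrays 38, 45 and 58 lie between the cortices and the other gliomas, while on the x axis array 58 lies among the cortices. The lines lie lowest on both axes together with several gliomas.

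Between the lines and the p53R172H gliomas, 11 of the 39 channel genes were lower in lines and 0 were higher, with a median of -0.82 against 0.05 over all genes. Over all genes, 6.43% were lower and 7.24% higher. Kcna1 (-2.65), Cacnb4 (-2.64), Kcnj3 (-2.24) and Kcnk1 (-2.07) fell the most, at an adjusted p of 0.000586, 0.00144, 0.00815 and 0.00293. The 4 sodium channel pore subunits all fell, with Scn2a at -1.95, Scn3a at -1.58, Scn8a at -1.46 and Scn1a at -1.26 (adjusted p from 0.0116 to 0.0359). The others were Cacna2d3 (-1.37), Kcnk2 (-1.34) and Cacna1a (-1.12). None of the 5 auxiliary subunits of potassium channels passed, which at a share of 6.43% over all genes is no result about these subunits. In 0 of the 39 genes did all lines lie below all of these gliomas (0.901% of all genes).

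The lines and these gliomas overlapped in Scn3a. Its signals ran from 3.82 through a median of 6.91 to 9.29 in p53R172H gliomas and from 3.78 through 4.91 to 7.41 in lines, with the early biopsy lines at 4.52 and 4.11. The lowest of these gliomas, array 64, lay with the lowest lines, and the other 10 gliomas were at or above 6.14. Without the glioma of array 58, together with arrays 38 and 45 of the other genotype, 12 of the 39 were lower in lines, and the median difference became -0.48. The share of all genes was not counted in that fit. Scn2a and Scn8a no longer passed with the mean of all probe sets (adjusted p = 0.0557 and 0.0936), Kcnk2 and Scn3a with only these groups in the model (0.0588 and 0.0521), and Scn2a without arrays 36, 41 and 50 (0.0502). All 13 microglia markers and 11 of 12 endothelial and pericyte markers were lower in lines than in these gliomas, as were 5 of 22 neuron markers, and their part in the channel values was not tested.

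Between p53R172H and p53null gliomas, 0 of the 39 channel genes passed, and 6 of 18193 genes (0.033%) did. The differences ran from -0.75 for Cacna2d1 (95% interval -2.07 to 0.57) to 0.79 for Kcnq5 (-0.06 to 1.64), with a median of 0.03. At an unadjusted p under 0.05 the count was also 0 of the 39, with limma, against 2024 of all genes. Mean signals were for example 8.10 ± 1.41 and 8.56 ± 1.36 for Kcna1, 5.02 ± 0.76 and 4.99 ± 0.73 for Kcnj9, and 7.49 ± 1.76 and 7.36 ± 1.87 for Scn2a (SD, n = 11 in each genotype). Differences inside such intervals could have been missed.

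Between the 2 early biopsy lines and the 11 end-stage lines, 0 of the 39 passed, as did 0 of all 18193 genes (0%). At an unadjusted p under 0.05 limma gave 0 of the 39 and 515 of all genes. The differences ran from -1.16 for Scn2a (95% interval -3.49 to 1.17) to 0.95 for Kcnd2 (-1.07 to 2.97). With 2 early lines these intervals are wide. The scores of both early lines over the 39 genes, -3.64 and -4.05, lay within the range of the end-stage lines.

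The 82 other genes of the table named Kcn, Hcn, Cacn or Scn give the channel genes outside the list. Of these, 39 were lower and 3 higher in gliomas than in cortex (median -0.49), and 44 were lower and 1 higher in lines (median -0.80). Between lines and p53R172H gliomas, 11 were lower and 2 higher. Shares of all genes were 24.7% lower and 22.6% higher in gliomas, and 24.3% lower and 25.5% higher in lines, each against cortex. For lines against p53R172H gliomas these shares were 6.43% lower and 7.24% higher. The largest falls in gliomas were those of Scn4b, a sodium channel auxiliary subunit, at -4.59 (from 9.11 ± 0.79, SD, n = 5, to 4.51 ± 0.92, SD, n = 22), Kcnj13, an inward rectifier of epithelia, at -3.67, and Kcnt2, a sodium-activated potassium channel, at -3.37. In lines they were those of Scn4b at -5.09, Scn3b at -5.01 and Kcns2 at -4.37. The genes that rose in gliomas were Kcnq1ot1 at 2.31, a non-coding RNA and not a channel, Cacng4 at 1.68, an auxiliary subunit of AMPA receptors, and Kcnn4 at 1.03, a calcium-activated potassium channel of non-excitable cells. Kcnk5, a leak channel gene, was the 1 that rose in lines, at 0.56 (adjusted p = 0.0447).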

How the data were processed

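RNA of 40 mouse samples was hybridised to Affymetrix mouse genome arrays, 1 array for each sample. The deposited log2 signals were made by the authors in R with robust multi-array averaging after correction for background and quantile normalization of all 40 arrays together, so a shift of most genes in one direction could not be seen. The log base is not stated and was read from the values (2.00 to 14.47). Of 45101 probe sets, 64 controls were left out, 34945 had 1 gene symbol in the platform annotation, 932 had several, and 9160 were not listed in it. Of the 34945, 34741 matched a RefSeq gene of assembly GRCm38.p6. The probe set with the highest mean signal stood for its gene, which gave 18193 genes. No column of another series was present.

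One limma 3.58.1 model (lmFit, contrasts.fit and eBayes, R 4.3.3) held all 40 arrays in 5 groups taken from the labels, and 5 comparisons were made with Benjamini-Hochberg adjustment over all genes at a threshold of 0.05. Precision is limited by the number of arrays, most of all for the 5 cortices and 2 early biopsy lines. The 5 groups shared 1 estimate of the spread of each gene, although their spreads differed. The labels name no animals. The study counts 11 mice in each glioma group and pairs the p53R172H tumors with the end-stage lines, so these groups hold the same mice. The model was also run on simulated data with independent noise and 1 spread for each gene. That run did not check unequal spreads or shared mice. Promoters were searched in Python 3.11.15. Every member could be named, and so could the other channel genes with the 3 largest rises and 3 largest falls past the threshold, in gliomas and in lines against cortex. The members and lists were chosen with earlier results of these data known. The alternatives averaged the probe sets of each gene, dropped probe sets marked as less specific (_x_at and _s_at), filtered out dim genes (above the array median on at least 2 arrays), fitted the compared groups alone, applied cyclic loess to the deposited values, weighted arrays by quality, used eBayes with trend and robust, kept only the 3 Cre-positive cortices, omitted the cortices and the early biopsy lines 1 at a time, and omitted the gliomas of arrays 38, 45 and 58 or of 36, 41 and 50. A fit of all probe sets was added after seeing the data.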

Additional observations from a re-analysis of the deposited data

Results flagged for a closer look

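Kcnip2, the gene of a calcium-binding partner of A-type potassium channels, had a log2 signal of 11.47 in the cortex of array 31, far above the other 4 cortices at 10.14 to 10.46. The gap to the next value was a share of 0.761 of the range of the 5 cortices, over the limit that Dixon's test sets for 5 samples. Chance marks about 1 in 20 groups in this way, and 39 genes were looked at in the cortices. The result for Kcnip2 did not depend on this array, since it was lower in gliomas and in lines under every alternative, leaving out array 31 included.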

How the results depend on the processing

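No paired analysis was possible because, although the study paired tumors with lines, the labels do not say which line came from which tumor, and the array numbers are shared by no 2 groups. The number of channel genes lower in gliomas than in cortex was 31 to 36 over the alternatives (33 or 34 with each cortex left out in turn), and 31 of the 34 passed under every one that gave a value, with none for Kcnh7 under the filter on dim genes. The exceptions were Kcnd2, Kcnk1 and Scn3a, all lost with only the 3 Cre-positive cortices, at differences of -1.73, -1.64 and -1.57. For lines against cortex the count was 33 to 37 (35 with each cortex left out), and for lines against p53R172H gliomas it was 9 to 13 lower, with 1 higher, Kcnd3, under array weights (0.67, adjusted p = 0.0446). No called gene changed direction. Shares of all genes were not counted under the alternatives. Between genotypes, and between early biopsy and end-stage lines, 0 channel genes passed under each alternative run, leaving out either early line included, where the lone line left is assumed to vary like the other groups.

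With the probe sets of each gene averaged, 9 of the 34 genes lower in gliomas and 10 of the 35 lower in lines moved by over 1.5 times, all toward 0, as for Cacna1a (-0.39 in gliomas). Values of genes that did not pass crossed 0 there for Kcnd3 in gliomas (0.0156) and for Kcnip3 in gliomas (0.37), in lines against cortex (0.64) and in lines against p53R172H gliomas (0.31). With cyclic loess, Kcnd3 in lines against cortex became -0.26. In lines against p53R172H gliomas, array weights turned Kcnc1 (0.0571), Kcnh7 (0.0382), Kcnj4 (0.10) and Cacna2d1 (0.13), leaving out arrays 38, 45 and 58 turned Kcnh7 (0.0159) and Kcnj4 (0.20), and leaving out arrays 36, 41 and 50 turned Kcnh7 (0.0051) and Kcnj16 (-0.11). The cause was not tested. Dim signals limit what can be seen, since the mean signal of 25 of the 39 genes in lines was below the mean array median. Of the 39, 11 were below the array median on every end-stage line.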
